A study of Mus musculus with 6 samples.

Results

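Genes of the blood and lymphatic endothelium, together with the ligands and receptors that drive vessel growth, were compared between Foxo1f/f and Foxo1d/d uteri. The 38 genes were chosen by symbol as genes of these vessels and their growth factors, and all 38 were found among the 23420 genes measured. Foxo1f/f females carried floxed Foxo1 alleles, and PgrCre/+ Foxo1f/f females, called Foxo1d/d, carried the same floxed alleles and Cre recombinase at 1 copy of the Pgr locus. Both groups were C57BL/6J mice aged 8 weeks that had been mated with vasectomized males, and the uterus was taken on pseudopregnancy day 4.5 (PPD 4.5). RNA of 3 pools per genotype, each of 2 mice, was sequenced, which gave 6 libraries. PgrCre recombines in cells that express PGR, in the uterine epithelium, stroma and muscle and also in the pituitary and ovary, so the deletion was not aimed at the endothelium. Cre was present in Foxo1d/d only, and an effect of Cre or of the altered Pgr allele cannot be told apart from one of Foxo1.

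Each gene had 1 value per genotype, the mean raw read count over the 3 libraries, as the authors deposited it. The libraries held a mean of 26125014 counts in Foxo1f/f against 27257963 in Foxo1d/d. Counts of single libraries were not analysed here, so the spread between pools was not measured, no difference has a replicate check and no p-value is given. Change was measured as a log2 ratio with Foxo1d/d over Foxo1f/f, computed from the means plus 1 count and scaled by the summed counts of all genes. Beside it stands a 95% Wilson interval, made from the counts summed over the libraries of each genotype, which covers counting error only.

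The targeted gene was examined first. Foxo1 (chr3:52268337-52350109, GRCm38) averaged 3941 counts in Foxo1f/f against 1456 in Foxo1d/d, a log2 ratio of -1.50 (interval -1.55 to -1.45). The count covers all cells of the uterus and the whole gene, including any exon outside the deleted segment, and the direction was that of the labels. Hoxa10, a homeobox gene of the uterus, had 14268 and 13779.7 counts, and the progesterone receptor gene Pgr had 5469 and 6551, so the labelled tissue was present in both groups.

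Blood vessels line themselves with endothelial cells, which carry receptor tyrosine kinases for the VEGF family (KDR, FLT1 and FLT4) and for the angiopoietins (TEK, with its partner TIE1). VEGFA acting on KDR drives sprouting and permeability, placental growth factor binds FLT1, ANGPT1 steadies vessels through TEK, and ANGPT2 loosens them. In the rodent uterus, vascular permeability rises at the site where a blastocyst attaches, and the stroma that turns into decidua grows a new vessel bed. FOXO1 is itself a transcription factor of the endothelium, where Angpt2 is among its known target genes. By immunostaining of pregnant mice, the paper found FOXO1 retained in uterine blood vessels of Foxo1d/d and lost from epithelium and stroma. Whether endothelial FOXO1 differed in the pools sequenced was not tested.

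Promoter sequences are shown for 4 of the genes: Pgf and Vegfa, which differed in opposite directions although both encode ligands of FLT1, Apln, the gene that was higher by the largest factor, and Pdpn, which held the only match to a FOXO motif. RefSeq windows of 300 bases on GRCm38.p6, from 250 bases before a start site to 50 bases after it, were matched for 22 of the 38 genes, with 30 windows in all. The windows printed lie on the minus strand at chr12:85177264-85177563 (Pgf), chr17:46032328-46032627 (Vegfa), chrX:48034804-48035103 (Apln) and chr4:143299515-143299814 (Pdpn), and each is written 5′ to 3′ along the gene. Capitals mark matches on either strand to the FOXO motif GTAAACA, the hypoxia motif ACGTG or GCGTG, and the ETS motif CCGGAAG or CAGGAAG.
Pgf: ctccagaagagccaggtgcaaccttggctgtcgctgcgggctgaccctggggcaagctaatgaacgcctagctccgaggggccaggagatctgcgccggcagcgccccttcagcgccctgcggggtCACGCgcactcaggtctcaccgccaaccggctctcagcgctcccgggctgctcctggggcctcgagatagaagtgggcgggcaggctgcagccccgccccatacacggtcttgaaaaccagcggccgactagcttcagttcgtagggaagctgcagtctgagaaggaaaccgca
Vegfa: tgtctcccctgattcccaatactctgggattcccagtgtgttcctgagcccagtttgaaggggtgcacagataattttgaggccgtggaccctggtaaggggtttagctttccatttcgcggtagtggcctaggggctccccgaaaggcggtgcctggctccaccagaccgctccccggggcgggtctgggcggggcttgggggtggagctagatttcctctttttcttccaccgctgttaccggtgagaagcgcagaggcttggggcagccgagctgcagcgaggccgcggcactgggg
Apln: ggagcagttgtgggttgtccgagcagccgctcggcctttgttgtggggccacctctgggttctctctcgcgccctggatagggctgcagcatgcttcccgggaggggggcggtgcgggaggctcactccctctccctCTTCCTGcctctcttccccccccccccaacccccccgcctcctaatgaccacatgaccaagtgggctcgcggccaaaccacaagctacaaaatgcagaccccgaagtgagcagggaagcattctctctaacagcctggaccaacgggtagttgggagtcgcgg
Pdpn: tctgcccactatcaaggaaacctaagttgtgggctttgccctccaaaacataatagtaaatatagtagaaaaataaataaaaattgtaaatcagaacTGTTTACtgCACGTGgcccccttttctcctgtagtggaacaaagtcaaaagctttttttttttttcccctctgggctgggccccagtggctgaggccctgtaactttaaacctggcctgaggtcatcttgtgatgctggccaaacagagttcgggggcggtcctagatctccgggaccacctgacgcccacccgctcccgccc

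In the Pgf window, 1 hypoxia match began at position -124 from the start site, and the other Pgf window (chr12:85175933-85176232) held none. The Vegfa window shown held no match, while a window at a start site inside the gene (chr17:46025114-46025413) held 2 hypoxia matches, at -218 and -211. Apln carried 1 ETS match at -113. In Pdpn, which encodes the mucin-like glycoprotein podoplanin, the FOXO match began at -153, and a palindromic hypoxia core, read once on each strand, began at -144 and -143. Of the 30 windows, 1 held the FOXO motif, 12 the hypoxia motif and 7 the ETS motif. Among all 32851 windows, 3.65% held the FOXO motif, 43.8% the hypoxia motif and 20.9% the ETS motif. A progesterone receptor motif, ACANNNTGT, was matched in 1 of the 30, a window of Erg, against 6.85% of all windows. These matches describe the letters of the windows and are not binding sites.

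Most of the 38 genes were slightly lower in Foxo1d/d, and few differed by a large factor. Pgf and Tmem100 were at least 1.5-fold lower and Apln was at least 1.5-fold higher, while the other 35 genes lay within 1.5-fold. The genes tested were the 15696 that averaged 10 counts or more across both genotypes, and of these 5.43% were at least 1.5-fold higher and 3.51% at least 1.5-fold lower. The number past 1.5-fold was near these shares in both directions. All 38 genes passed the filter, with mean counts from 73 for Apln in Foxo1f/f to 13794 for Cd34 in Foxo1d/d. At a lower threshold of 0.32 on the log2 scale, 2 were higher (Apln and Vegfa) and 5 lower (Pgf, Tmem100, Angpt2, Prox1 and Vwf), against 12.5% and 9.00% of the genes tested.

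The direction of the small differences was uneven. The log2 ratio was below 0 for 29 of the 38 genes and above 0 for 9, with a median of -0.16, against a median of 0.02 over the genes tested, of which 7047 of 15696 lay below 0. The counting interval lay below 0 for 24 genes, above 0 for 5 (Vegfa, Angptl4, Apln, Cd34 and Podxl) and included 0 for 9. Among the genes tested, 27.3% had an interval below 0 and 36.7% above 0. When the intervals were widened for an assumed CV of 10% between pools, a value that was not measured here, 8 genes remained below 0 (Pgf, Tmem100, Angpt2, Prox1, Vwf, Mmrn1, Cd93 and Emcn) and 3 above (Apln, Vegfa and Angptl4), against 10.4% and 14.5% of the genes tested. The RNA came from whole uterus, and ratios were scaled by the counts of all genes. Fewer endothelial cells, less RNA per endothelial cell and more RNA from other cells therefore cannot be told apart.

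**Figure D1:**
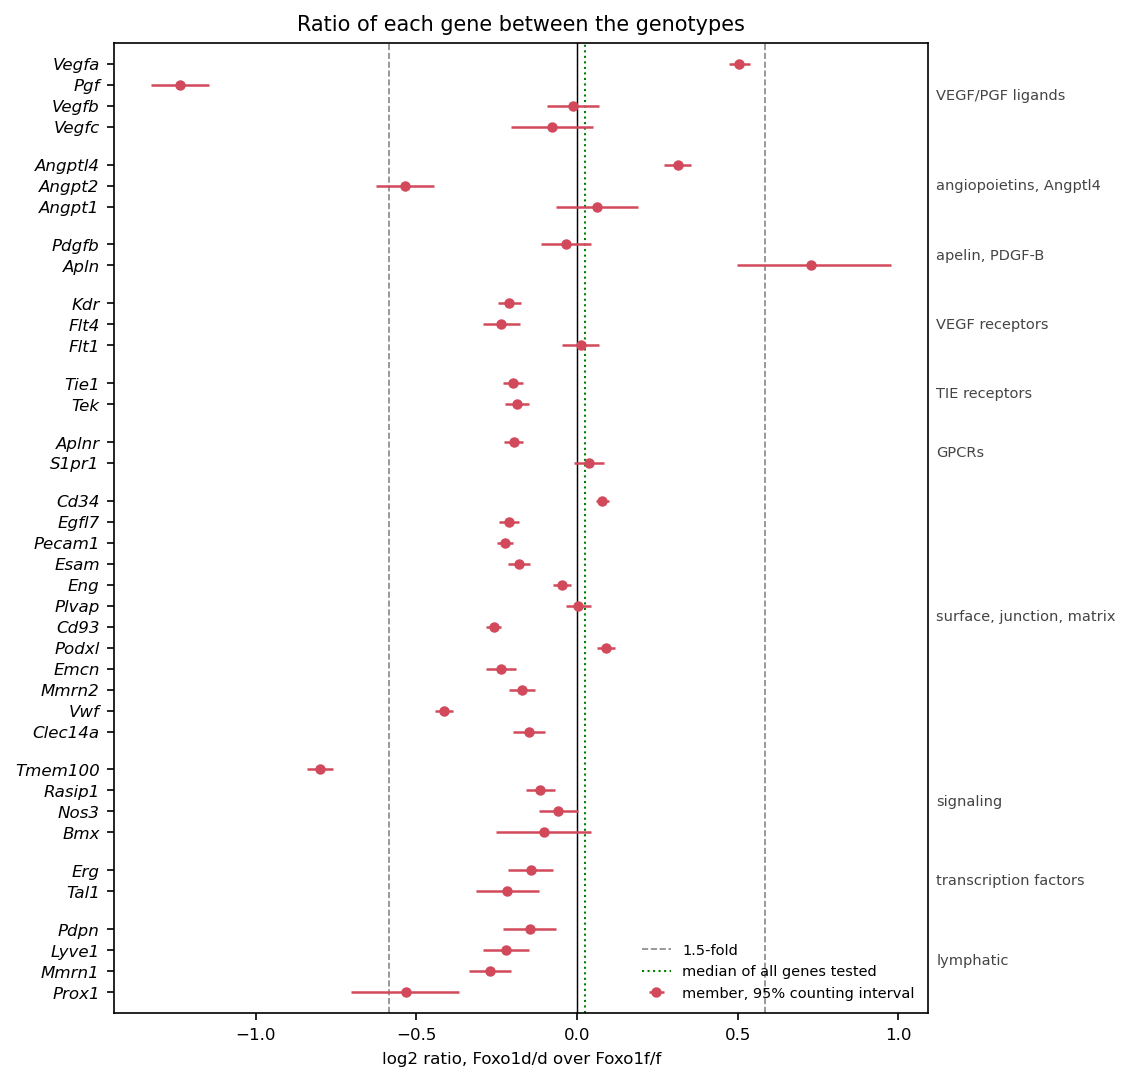
Log2 ratios (Foxo1d/d over Foxo1f/f) for the 38 genes, grouped by role, with bars for the 95% counting interval, dashed lines at 1.5-fold and a dotted line at the median of all genes tested. Pgf (-1.23) and Tmem100 (-0.80) lie beyond the lower dashed line and Apln (0.73) beyond the upper one.

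Levels of different genes were compared per length, as library-scaled counts (CPM) per kb of exon. On that scale 29 of the 38 genes lay above the median of the genes tested in Foxo1f/f, which was 10.7 CPM per kb over the 14710 with an exon length. Cd34, the sialomucin of endothelial and stromal progenitor cells, was the highest in both genotypes, at 184 CPM per kb in Foxo1f/f against 194 in Foxo1d/d. At the low end stood Apln in Foxo1f/f, at 0.887, and Prox1 in Foxo1d/d, at 0.757. Counting intervals were widest for Apln and Prox1, which had the fewest counts.

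**Figure D2:**
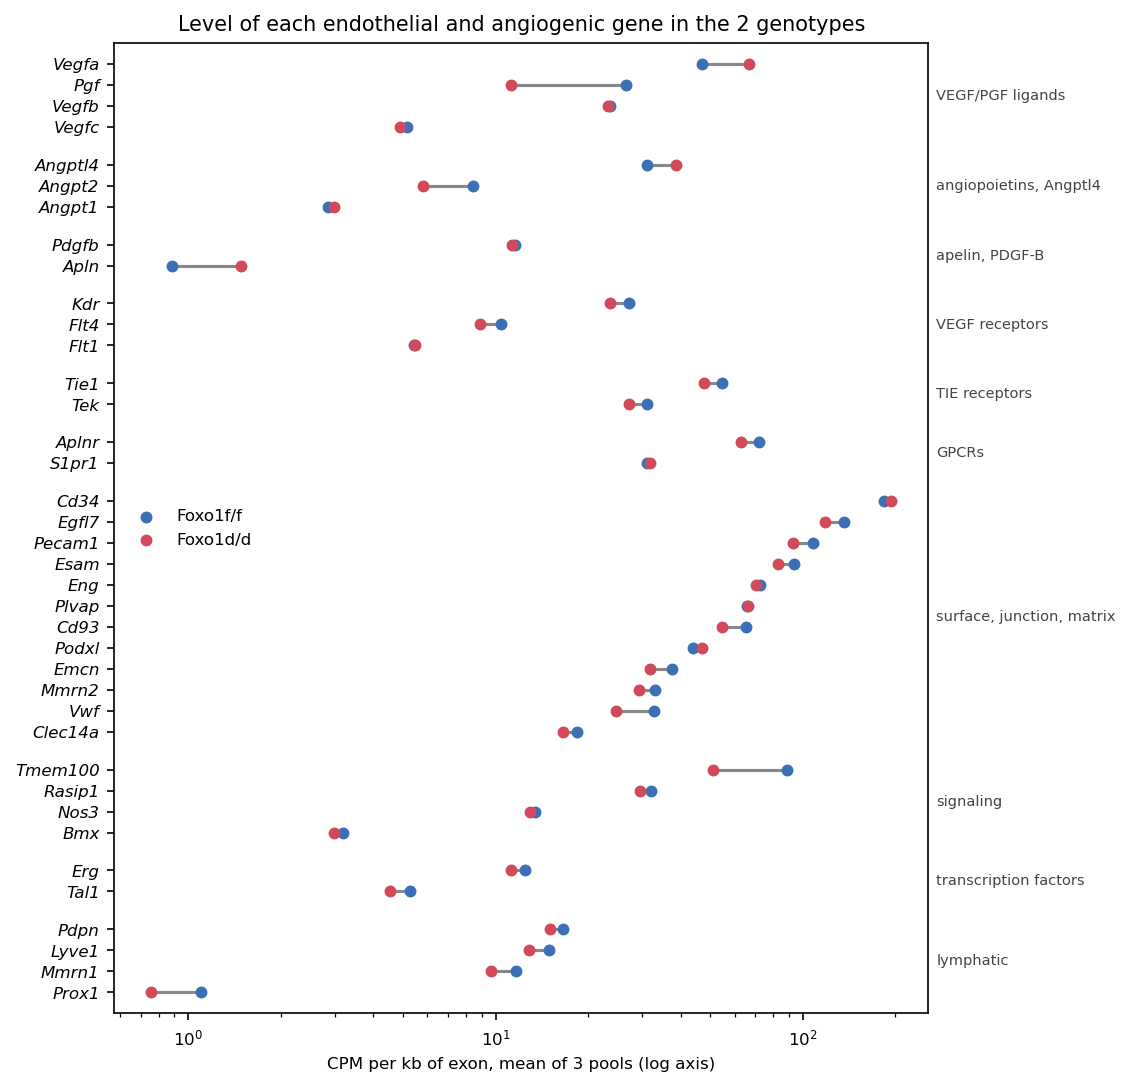
Level of each of the 38 genes in CPM per kb of exon on a log axis, in Foxo1f/f (blue) and Foxo1d/d (red), each point the mean of 3 pools, with genes grouped by role. Points of a gene lie close together except for Pgf, Tmem100, Apln and, less so, Vegfa, Angpt2 and Prox1.

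Among the VEGF family ligands, the genes for placental growth factor and VEGFA moved apart. Pgf averaged 1096 counts in Foxo1f/f against 486 in Foxo1d/d, which is 2.36-fold lower (log2 ratio -1.23, interval -1.32 to -1.15). Vegfa, the main growth factor for blood endothelium and a product of many uterine cell types, had 4339 and 6422 counts, 1.42-fold higher (log2 ratio 0.50, interval 0.47 to 0.54). Vegfb had 787 and 814 counts, a log2 ratio of -0.01. Vegfc, the ligand of FLT4 that guides lymphatic growth, was the least abundant of the family at 330.3 and 327 counts (log2 ratio -0.08, interval -0.20 to 0.05). Intervals of Vegfb and Vegfc included 0, and the family had no common direction. Counts per gene do not separate the splice forms of Vegfa, which differ in how tightly they bind matrix.

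Of the angiopoietins, Angpt2 was lower, and whether Angpt1 differed beyond counting error depended on the scaling. Angpt2, the context-dependent antagonist of TEK that is stored in endothelial cells, had 784 counts in Foxo1f/f against 564 in Foxo1d/d, 1.45-fold lower (log2 ratio -0.54, interval -0.63 to -0.45). Angpt1, the TEK agonist made by mural and stromal cells, had 316 and 345 counts (log2 ratio 0.06, interval -0.06 to 0.19). Angptl4, a secreted inhibitor of lipoprotein lipase that does not bind TEK, was the most abundant of the group at 2684 and 3480.3 counts (log2 ratio 0.31, interval 0.27 to 0.36). Angptl4 is also made by adipocytes, whose marker genes were higher in Foxo1d/d, and the part of these markers in its value was not tested.

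Apln, the gene of the apelin peptide that tip cells of growing vessels secrete, had the lowest counts of the 38 genes. It had 73 counts in Foxo1f/f against 127 in Foxo1d/d, 1.67-fold higher (log2 ratio 0.73, interval 0.50 to 0.98). The lower bound of that interval lies under 1.5-fold, which is 0.585 on the log2 scale. Pdgfb, with which endothelial cells recruit pericytes, had 889.7 and 906 counts and a log2 ratio of -0.04 (interval -0.11 to 0.04).

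The receptors of the VEGF family were level or slightly lower. Kdr, which encodes VEGFR2, was the most abundant at 4221 counts in Foxo1f/f against 3805 in Foxo1d/d (log2 ratio -0.21, interval -0.25 to -0.17). Flt1, which encodes VEGFR1, was the lowest per length, with 1554 and 1634 counts (log2 ratio 0.01, interval -0.05 to 0.07). Flt4, the VEGFR3 gene of lymphatic and sprouting endothelium, had 1706 and 1511 counts and a log2 ratio of -0.24. The soluble form of FLT1, which traps VEGFA and placental growth factor, is made from the same gene and is not separated in these counts.

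Both receptors of the TIE pair were lower by nearly the same amount. Tie1 had 5844 and 5307 counts (log2 ratio -0.20, interval -0.23 to -0.17), and Tek had 3809 and 3490.3 (log2 ratio -0.19, interval -0.23 to -0.15). Of the G protein-coupled receptors, Aplnr, the apelin receptor, had 6966 and 6338 counts (log2 ratio -0.20, interval -0.23 to -0.17). S1pr1, the sphingosine-1-phosphate receptor that keeps junctions closed, had 2475 and 2649.7 counts (log2 ratio 0.04, interval -0.01 to 0.08). Aplnr was thus lower beyond counting error while the gene of its ligand was higher, and S1pr1 was within counting error, or above it when scaled to other pan-endothelial genes.

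Ratios of levels per kb are given for 8 pairs, which were formed after the values of the genes were seen and restate them. The level of Vegfa over that of Pgf went from 1.78 to 5.94, a log2 change of 1.74 (interval 1.65 to 1.84). For Pgf over its receptor gene Flt1 the ratio went from 4.89 to 2.06, a log2 change of -1.25 (interval -1.35 to -1.14), and for Vegfa over Kdr from 1.73 to 2.84, a log2 change of 0.72 (interval 0.67 to 0.76). Angpt2 over Angpt1 went from 2.97 to 1.96, a log2 change of -0.60 (interval -0.75 to -0.44), and Apln over Aplnr from 0.0123 to 0.0235, a log2 change of 0.94 (interval 0.69 to 1.18). Flt1 over Kdr went from 0.199 to 0.232, a log2 change of 0.22 (interval 0.15 to 0.29). The remaining pairs joined receptors that stayed in proportion. Tie1 over Tek went from 1.76 to 1.75, a log2 change of -0.01 (interval -0.06 to 0.04) and Flt4 over Kdr from 0.383 to 0.376, a log2 change of -0.03 (interval -0.09 to 0.04).

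The 12 surface, junction and matrix genes, the classical markers of endothelium, had log2 ratios from -0.41 to 0.09 with a median of -0.18. Cd34 had 12519 counts in Foxo1f/f against 13794 in Foxo1d/d (log2 ratio 0.08, interval 0.06 to 0.10), and Clec14a, a C-type lectin of vessel walls, was the lowest of them in level, at 2193 and 2064 (log2 ratio -0.15, interval -0.20 to -0.10). The furthest from 0 was Vwf, the clotting factor stored with ANGPT2 in Weibel-Palade bodies, at 7594 and 5947 counts (interval -0.44 to -0.39). Pecam1 (-0.22), Cd93 (-0.26), Emcn (-0.24), Egfl7 (-0.21), Esam (-0.18) and Mmrn2 (-0.17) formed a narrow band, and their products are adhesion molecules, sialomucins and matrix proteins of the vessel wall. Eng, a TGF-beta co-receptor, was nearer to 0 at -0.05, and Plvap, the diaphragm protein of fenestrated capillaries, was at 0.00. Podxl and Cd34, which belong to the same sialomucin family, were the 2 with intervals above 0, and both are also expressed outside endothelium. Scaling to the median ratio left the directions of Podxl and Cd34 as they were and put Plvap, and also Flt1, below 0.

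Tmem100 stood apart from the signaling genes. This membrane protein acts downstream of the BMP9 and ALK1 receptor pathway in endothelium, and its gene had 4107 counts in Foxo1f/f against 2461 in Foxo1d/d, 1.74-fold lower (log2 ratio -0.80, interval -0.84 to -0.76). Eng, the co-receptor of the same pathway, and Acvrl1, the gene of ALK1 itself (3919 and 3989 counts, log2 ratio -0.04), added here after its value was seen, were close to level. Bmx, a TEC family kinase of arterial endothelium, had 251 and 243 counts (log2 ratio -0.10, interval -0.25 to 0.04). Nos3, the endothelial nitric oxide synthase gene, had a log2 ratio of -0.06 and Rasip1, which is needed for vessel lumens, -0.11. Exons of Nos3, Eng and Cd34 share some bases with a gene on the opposite strand, whose reads there could not be told apart. The transcription factor genes Erg, with 1127 and 1063 counts (log2 ratio -0.14, interval -0.21 to -0.07), and Tal1, with 586 and 526 (log2 ratio -0.22, interval -0.32 to -0.12), were both slightly lower. When scaled to other pan-endothelial genes, the interval of Erg (-0.11 to 0.03) included 0.

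All 4 lymphatic genes were lower beyond counting error, against 27.3% of the genes tested, with a median of -0.25. When scaled to other pan-endothelial genes, 3 of the 4 were, and the interval of Pdpn included 0. Prox1, the transcription factor that sets lymphatic identity, had 227 counts in Foxo1f/f against 163 in Foxo1d/d, 1.45-fold lower (log2 ratio -0.53, interval -0.70 to -0.37). Mmrn1 was the most abundant by count at 1366 and 1181 (log2 ratio -0.27, interval -0.34 to -0.21), and Pdpn per length at 789.7 and 744 counts (log2 ratio -0.15, interval -0.23 to -0.06). Lyve1, the hyaluronan receptor of lymphatic capillaries and of some macrophages, was at -0.22. Flt4 (-0.24), whose product marks the same vessels, was in the same range. Other cells of the uterus also express Pdpn and Mmrn1, and these genes alone do not measure lymphatic vessels.

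**Figure D3:**
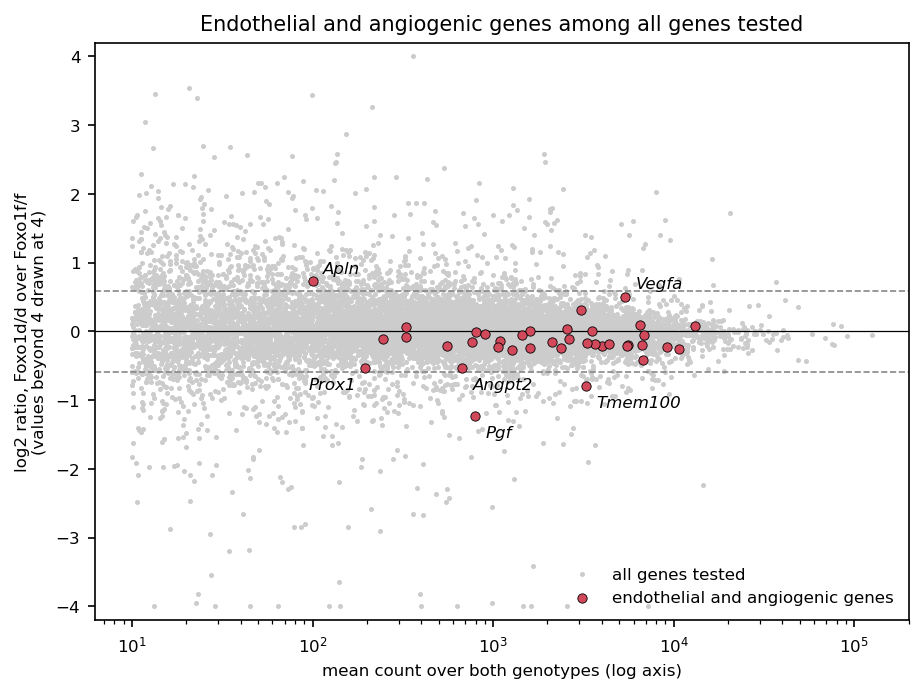
Mean count over both genotypes (log axis) against the log2 ratio (Foxo1d/d over Foxo1f/f) for the 15696 genes tested (grey) and the 38 endothelial and angiogenic genes (red), with dashed lines at 1.5-fold and values beyond 4 drawn at 4. Most of the 38 genes form a band just below 0, and Pgf, Tmem100, Angpt2, Prox1, Vegfa and Apln are named.

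A second set of 29 pan-endothelial genes outside the 38 showed a similar shift, with a median of -0.11. In it 20 of 29 genes were below 0 (7047 of the 15696 genes tested), 17 with an interval below 0, while 6 had an interval above 0, against 27.3% and 36.7% of the genes tested. The most abundant was Cdh5, the VE-cadherin gene, with 9141 and 8175 counts (log2 ratio -0.22), and the 1 gene past 1.5-fold was Sox7, with 559.7 and 1004 (log2 ratio 0.78, interval 0.70 to 0.87). Sox7 encodes an endothelial transcription factor, and its relatives Sox17 (0.54) and Sox18 (-0.41), chosen for mention after their values were seen, lay on opposite sides of 0. SOX17 is also made by uterine epithelium. Measured against the median of these 29 genes, which moves every ratio up by 0.11, Pgf was at -1.13, Tmem100 at -0.69, Angpt2 at -0.43, Prox1 at -0.43, Angptl4 at 0.42, Vegfa at 0.61 and Apln at 0.84. On that scale Vegfa joined Apln past 1.5-fold and Sox17 (0.65) joined Sox7. The median of the 38 genes was then -0.053, and 23 of them remained below 0. That scaling centres the 29 genes on their own median, so their 12 intervals below 0 and 10 above say nothing about the list.

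Genes that work with the 38 were followed in lists of their own, and of all genes tested 5.43% were higher and 3.51% lower by 1.5-fold. In the apelin, adrenomedullin, endothelin and sphingosine systems, 16 of 17 genes were tested, 1 was higher and 1 lower by 1.5-fold, and the median was -0.08. Apela, listed under the older name Gm10664, encodes the other peptide ligand of the apelin receptor and had 121 counts in Foxo1f/f against 25 in Foxo1d/d, 5.05-fold lower (log2 ratio -2.29, interval -2.69 to -1.98). Apln and Apela thus differed in opposite directions while the gene of their shared receptor, Aplnr, was at -0.20. Ramp3, a partner protein that turns the receptor CALCRL into an adrenomedullin receptor, had 325 and 1280.3 counts, 3.78-fold higher (log2 ratio 1.91, interval 1.82 to 2.02). Adm itself (-0.18), Calcrl (-0.16) and the endothelial partner gene Ramp2 (-0.08), named after their values were seen, were within 1.5-fold. Ece1, which encodes the endothelin-converting enzyme, was the most abundant at 6785 and 6261 counts (log2 ratio -0.18).

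Co-receptors, decoys and feedback genes of VEGF signaling stayed within 1.5-fold in 19 of 19 cases, with a median of 0.00. Plxnd1, a semaphorin receptor of endothelium, had the most counts of the list in Foxo1f/f, 7501 against 6999 in Foxo1d/d (log2 ratio -0.16). The VEGF co-receptor genes Nrp1 (0.35) and Nrp2 (-0.21) differed in sign, and Ccbe1 (-0.53), which VEGFC needs for its processing, was the lowest of the list. These were picked out after their values were seen. Of the angiopoietin-like genes and TIE partners, 7 of 8 were tested, with a median of -0.17. Angpt4, a further TEK ligand, had 70.3 and 151 counts, 2.05-fold higher (log2 ratio 1.03, interval 0.80 to 1.27), and Angptl7 was the most abundant at 6958 and 5246 (log2 ratio -0.47, interval -0.50 to -0.44).

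Arterial and venous genes had a median of -0.01, with 1 of 16 past 1.5-fold. That was Klf2, the flow-responsive transcription factor gene, with 1271 counts in Foxo1f/f against 846 in Foxo1d/d, 1.57-fold lower (log2 ratio -0.65, interval -0.72 to -0.58). When scaled to the other pan-endothelial genes, Klf2 was within 1.5-fold (-0.54) and Efnb2, at 0.57 before, was past it (0.67), so the list then held 1 higher and 0 lower. Nr2f2, a venous and stromal regulator, was the most abundant at 6681 and 6416 counts (log2 ratio -0.12). Of 6 adhesion molecules that capture leukocytes on endothelium, Vcam1 had 416 and 703 counts, 1.62-fold higher (log2 ratio 0.69, interval 0.60 to 0.80). Icam1, the most abundant of them, had 1589.7 and 1849 counts (log2 ratio 0.16), and the median of the 6 was 0.06.

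Vegfa and Angptl4 are both induced by hypoxia, and Angptl4 also by PPAR receptors, and genes of these responses were listed. The 20 hypoxia-response genes had a median of -0.02, with 2 higher and 2 lower by 1.5-fold. Pfkfb3, a glycolytic regulator, had 2554 and 5731 counts (log2 ratio 1.10, interval 1.07 to 1.14), and Stc2 had 462 and 751 (log2 ratio 0.64). The glucose transporter gene Slc2a1 had 1557 and 1016 counts (log2 ratio -0.68), and Ndrg1, the most abundant of the list in Foxo1f/f only, 7289 and 4226 (log2 ratio -0.85). Under the pan-endothelial scaling, Slc2a1 (-0.57) fell within 1.5-fold and Egln1 (0.54 before, 0.65 then) passed it, which gave 3 higher and 1 lower. Of 11 tested PPAR-responsive genes, none was higher and 1 was lower by 1.5-fold, with a median of -0.10. Pdk4, which restrains glucose oxidation and is also a known FOXO1 target, had 951 and 339 counts (log2 ratio -1.55, interval -1.65 to -1.45). Txnip, the most abundant gene of that list, had 22489.7 and 15749 counts (log2 ratio -0.58). The part of either response in Vegfa and Angptl4 was not tested.

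Markers of other cell types moved between the genotypes, and their part in the results for the 38 genes was not tested. Of the cells around vessels, 10 pericyte genes had a median of 0.10 and a summed level of 908 CPM in Foxo1f/f against 906 in Foxo1d/d, with none past 1.5-fold, and Pdgfrb, the receptor gene for PDGF-B, was the most abundant (log2 ratio -0.05). Smooth muscle genes were lower, 9 of 10 beyond counting error (27.3% of the genes tested), with a median of -0.30 and a summed level of 7732 and 6329 CPM, led by Myh11 (log2 ratio -0.43). Their shift was larger than that of the endothelial genes and in the same direction. Stromal genes had a median of -0.08 and summed to 12384 and 12119 CPM, with Col3a1 the most abundant (log2 ratio -0.05).

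Epithelial genes were higher, 11 of 14 beyond counting error (36.7% of the genes tested), with a median of 0.29 and a summed level of 914 CPM in Foxo1f/f against 1118 in Foxo1d/d. Krt19 (1.22), Elf3 (0.86) and Wnt7a (0.66) were past 1.5-fold, and Cdh1, the most abundant, was at 0.11. Macrophage genes were higher beyond counting error in 9 of 10 cases (36.7% of the genes tested), or 8 when scaled by the median ratio. Their median was 0.23 and their summed level 574 and 664 CPM, with Csf1r the most abundant in Foxo1f/f only (0.16). Epithelium and macrophages can both make VEGFA, and their part in the value of Vegfa was not tested. Mesothelial genes, of which 7 of 8 were found, had a median of 0.28 and summed to 242 and 266 CPM, with Krt19 again past 1.5-fold and Wt1, which is also on the stromal list, the most abundant (-0.24).

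Adipocyte genes had the highest median of the lists, 1.76, with 8 of 10 tested genes at least 1.5-fold higher, against 5.43% of the genes tested. Their summed level was 101 CPM in Foxo1f/f against 171 in Foxo1d/d. Cidec, a lipid droplet gene, had 30 and 147 counts (log2 ratio 2.19), Retn 21.7 and 105 (2.16), Plin1 19.3 and 90 (2.10), Cfd 156 and 594 (1.86) and Adipoq 53.7 and 201 (1.82). Lpl, the most abundant of the list and not limited to fat, was at 0.51. Fat tissue contains vessels of its own and expresses Apln and Angptl4, both of which were higher in Foxo1d/d. Of the 38 genes, 29 had a log2 ratio below 0 and 9 above 0. Of the 29 other pan-endothelial genes, 20 were below 0 and 9 above 0. The part of fat tissue in the values of Apln, Angptl4 and the vessel genes was not tested.

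Blood cells were present in both groups. Of the 9 red cell genes found, 2 were tested. Hbb-bs, listed as Beta-s, had 1087 and 2528 counts (log2 ratio 1.16) and Alas2 147 and 403 (1.39), while Hba-a1, Hba-a2, Hbb-b1 and Hbb-b2 were listed at 0 in both genotypes. All 9 red cell genes found summed to 47.5 CPM in Foxo1f/f against 108 in Foxo1d/d. Platelet genes, of which 4 of 10 were tested, had a median of 0.13 and summed to 22.3 and 25.5 CPM, with Itga2b the most abundant (0.12). Red cell genes were thus higher while Pecam1, Cdh5 and most vessel genes were slightly lower. Nerve genes had a median of -0.05 over 8 genes and summed to 103 and 218 CPM, most of it Ngfr (log2 ratio 1.37), which pericytes and stroma can also express. Ngfr was the 1 nerve gene at least 1.5-fold higher, while 2 were at least 1.5-fold lower, or 1 with a pseudocount of 5. Of the genes tested, 5.43% were higher and 3.51% lower by that factor. Genes of the uterus itself had a median of 0.20 over 9 tested genes and summed to 1446 and 1467 CPM. Hoxa10, shared with the stromal list, was the most abundant of these (-0.11), and Msx1 (1.11) and Pax2 (0.74) were past 1.5-fold.

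**Figure D4:**
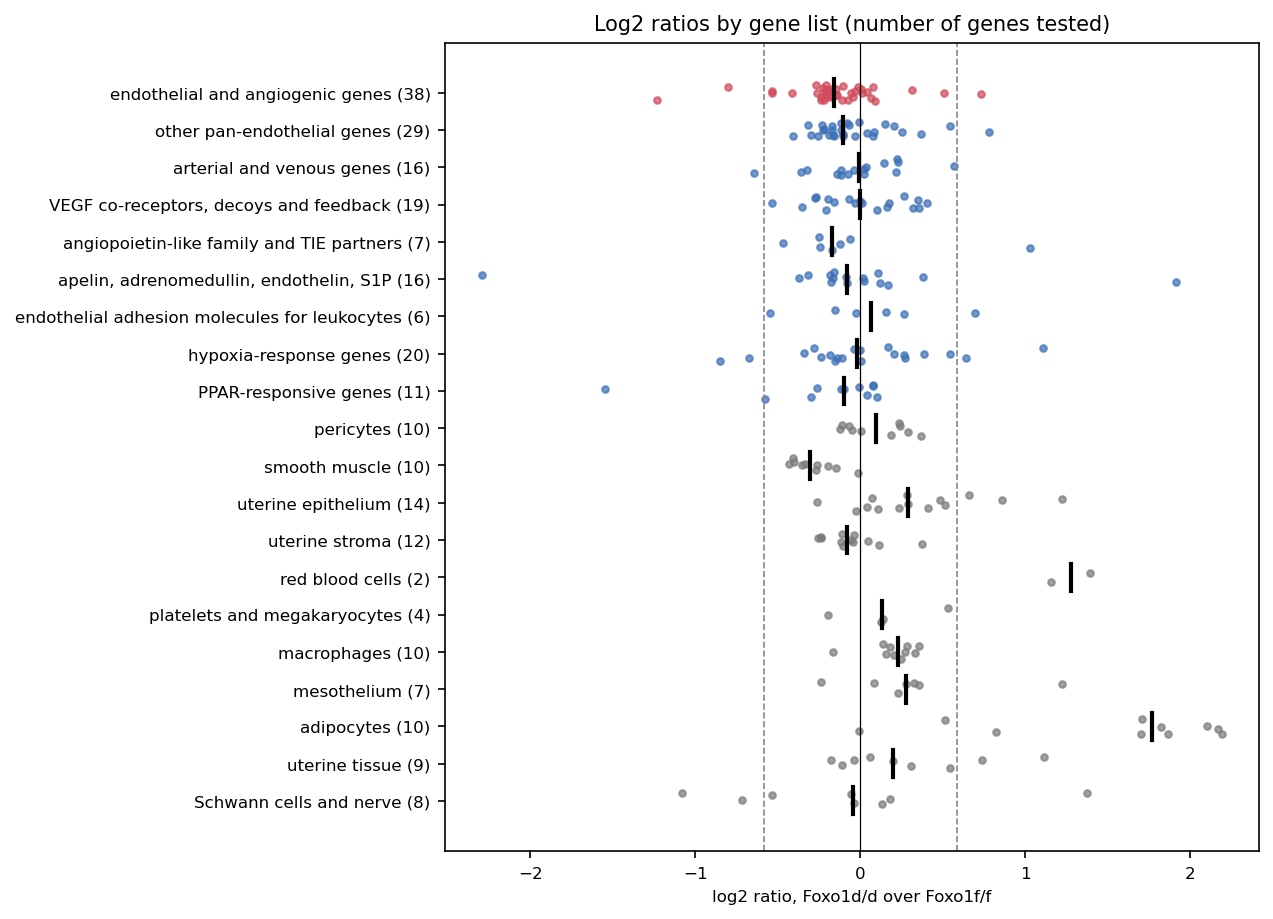
Log2 ratios (Foxo1d/d over Foxo1f/f) for every tested gene of the 38 (red), of the lists of related genes (blue) and of the cell type lists (grey), with a black bar at the median of each list and dashed lines at 1.5-fold. Medians were -0.16 for the 38 genes, -0.11 for the other pan-endothelial genes, -0.30 for smooth muscle and 1.76 for adipocyte genes.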

How the data were processed

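Uterine RNA-seq libraries were grouped by genotype as the labels give it. The authors trimmed paired-end reads, mapped them with STAR, removed duplicates with Picard and counted reads per RefSeq gene with HTSeq. Versions and the strand setting are not given in the sources used here. The submitters' notes name mm9 and the study's methods mm10, and no coordinate of the deposited file was used. The authors deposited, for each gene, raw counts averaged over the libraries of a genotype, and every value times 3 was whole within rounding. The authors' own fold change, average log2 CPM, p-value and FDR from edgeR also stand in the deposited table and were not used. Removing duplicates can lower the counts of abundant genes most.

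A pseudocount of 1 was added, and ratios were scaled by genotype totals, 78375043 for Foxo1f/f and 81773890 for Foxo1d/d over the libraries. Genes averaging 10 counts or more were tested against thresholds of 1.5-fold and of 0.32 on the log2 scale. Medians of lists cover the genes tested, and summed levels cover every gene of a list that was found, tested or not. Exon lengths came from GENCODE transcripts on GRCm38, positions and promoters from RefSeq. Named in full are members past 1.5-fold, the most and least abundant member of each role and Foxo1, and of other lists up to 5 genes each way past 1.5-fold with a mean count of at least 50 and the gene with most counts in Foxo1f/f. Members and lists were chosen with earlier results of these data known. Genes reached through a synonym are Apela and Hbb-bs, among others, and Exoc3l2, Hbb-bt and Muc16 were not found. For the PPAR list, 1 gene is not reported here and was left out of its values. The steps were tested on simulated data, with python 3.11.15, numpy 2.4.6, pandas 2.3.3 and scipy 1.17.1. Alternatives were other pseudocounts, scalings, thresholds, count filters and intervals.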

Additional observations from a re-analysis of the deposited data

How the results depend on the processing

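Pseudocounts of 0.1 and 5, scaling by the median ratio or the upper quartile and filters at a mean count of 1 or 100 left 1 gene at least 1.5-fold higher and 2 lower, and the median of the 38 genes between -0.18 and -0.16. Scaling to the other pan-endothelial genes, which moves the median of all genes by 0.11, gave 2 higher and 2 lower and a median of -0.053. With that scaling, chosen for the intervals after seeing the data, 11 genes had an interval above 0 and 19 below. Intervals of Clec14a, Erg, Pdpn and Rasip1 then included 0, and those of Angpt1, Eng, Flt1, Plvap, S1pr1 and Vegfb lay above it. At a threshold of 0.32 on the log2 scale 2 genes were higher and 5 lower, and at 2-fold 0 were higher and 1 lower, as a stricter threshold passes fewer genes. A stricter interval left 5 above 0 and 23 below, scaling by the median ratio 5 and 25 with Nos3 added below, and an assumed CV of 10% between pools 3 and 8.

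Of 395 recomputed log2 ratios over 79 named genes, 72 left their counting interval, 64 of them under scaling to the other pan-endothelial genes. The scalings moved every ratio by 0.11 at most, too little to turn the sign of a gene past 1.5-fold. Of all genes named in the text, that scaling put Eng, Vegfb, Vegfc, Nos3, Bmx, Pdgfb, Pdgfrb, Col3a1, Acvrl1 and Ramp2 above 0, Klf2 (-0.54) and Slc2a1 (-0.57) within 1.5-fold and Vegfa (0.61), Lpl (0.62), Sox17 (0.65), Efnb2 (0.67) and Egln1 (0.65) past it. It raised the number at least 1.5-fold higher from 1 to 2 in the other pan-endothelial list, from 3 to 5 in epithelium, from 8 to 9 in adipocytes, from 2 to 3 in uterine tissue and from 0 to 1 in platelets, and turned the medians of the arterial and venous, VEGF co-receptor, apelin system, hypoxia, PPAR, stromal and nerve lists positive. Scaling by the median ratio or the upper quartile put Flt1 and Plvap below 0 and Txnip past 1.5-fold (-0.60 and -0.59), and the median ratio also put Gm16897 below 0.

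No paired analysis was possible because the deposited columns hold 1 mean per genotype, and leaving out a pool was not run for the same reason. Counting error is the one error computed here. It limits Apln and Prox1 most, and small differences of abundant genes can exceed it without exceeding the spread between mice.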

Other observations

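Exons of 3 of the 38 genes share bases with a gene on the opposite strand, and reads there cannot be assigned without strand. Nos3 shares 294 exon bases with Atg9b, an autophagy gene that overlaps it tail to tail. Atg9b averaged 736 counts in Foxo1f/f against 53.7 in Foxo1d/d, a log2 ratio of -3.81 (interval -4.07 to -3.61), while Nos3 had 1451 and 1455 counts and a log2 ratio of -0.06 (interval -0.12 to 0.00). The 2 genes thus share a locus and differed in very unequal measure, and Atg9b was singled out after its value was seen. Eng shares 61 exon bases with Fpgs, which had 1070 and 1261 counts (log2 ratio 0.18), and Cd34 shares 148 with Gm16897, which had 203 and 214 counts (log2 ratio 0.02).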
